A study of Homo sapiens with 6 samples.

Results

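The mitochondrial ribosomal proteins were examined here as the genes whose single symbol in the platform's probe annotation begins with MRPL or MRPS and a digit, and 74 of 18417 tested genes met that rule. Of these, 73 code for proteins, 48 of the large subunit (MRPL) and 25 of the small subunit (MRPS), and MRPS31P5 is a transcribed pseudogene. RefSeq lists 77 coding genes of this name pattern, and the 4 not tested were MRPL51, MRPS6, MRPS24 and MRPS28, whose probe sets carry several symbols. RNA from MDA-MB-231 cells, a line grown from a human breast cancer that lacks hormone receptors and HER2, was hybridised to Affymetrix arrays. Cells of 3 samples received 10 µM YW3-56, a small-molecule inhibitor of peptidylarginine deiminases, for 8 h, and cells of 3 samples received the vehicle DMSO, for which the labels give no separate time. All 6 samples are of 1 cell line with no other genetic change named. The labels call the replicates biological without saying whether they came from separate cultures.

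The mitochondrial ribosome translates the messages of the mitochondrial genome, whose products are core subunits of the respiratory chain and of ATP synthase. Its ribosomal RNAs are encoded in the mitochondrion, but all of its proteins are encoded in the nucleus, made in the cytosol and imported. Some have bacterial counterparts, and others were added during the evolution of mitochondria.

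Values are RMA expression on the log2 scale, as deposited. The median over all probe sets ran from 7.58 to 7.65 in the YW3-56 arrays and from 7.55 to 7.74 in the DMSO arrays. A gene was called changed at a limma adjusted p under 0.05. At that threshold, 11.5% of all tested genes were lower and 9.84% were higher in YW3-56. The 6 markers fixed as high in this line, among them VIM and CD44, stood between the 99.5 and 99.9 percentiles of tested genes by mean value. ESR1 and PGR, which are absent from a triple-negative line by definition, were at the 22.4 and 8.88 percentiles. CDH1 was at the 14.1 percentile, while GATA3 (35.2) and EPCAM (39.1), also fixed as low, stood higher. ERBB2, at the 65.5 percentile, was not at the low end, and of these 12 markers CAV1 (-0.43) and GATA3 (-0.37) were called lower. Of 10 measured leukocyte, fibroblast and endothelial markers, none passed the test for a change in either direction, and only COL1A1, at the 62.3 percentile, and PDGFRB, at the 34.5 percentile, were above the 30th.

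In cells treated with YW3-56, a share of the transcripts for each subunit of the mitochondrial ribosome fell modestly, and 1 rose by more than any of them fell. Of 73 coding members, 25 fell and 1 rose, and the 25 that fell were between 0.670 and 0.848 of their DMSO level. The gene that rose was MRPL18, which was 1.91-fold higher. The share that fell was 34.2%, beside the 11.5% of all tested genes. Among the 13215 genes with a mean at or above that of the dimmest coding member 15.2% were lower. The share was 19.8% among the 3000 genes at or above the median level of the coding members. Counting the pseudogene, 27 of 74 members passed in either direction, beside 21.4% of all tested genes. In 47 of 73 coding members all 3 YW3-56 arrays were below all 3 DMSO arrays, an order found in 21.4% of all genes. In 4 they were all above, found in 15.5%. Among the 3000 brighter genes, 37.4% had all YW3-56 arrays below and 23.6% had them all above. In bulk RNA, less RNA per cell and a changed mix of cell states cannot be told apart. The median log2 fold change over the coding members was -0.21, against -0.05 over all tested genes, and 65 of 73 had a negative value, against 62.1% of all genes. No member changed by 2-fold or more.

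**Figure D1:**
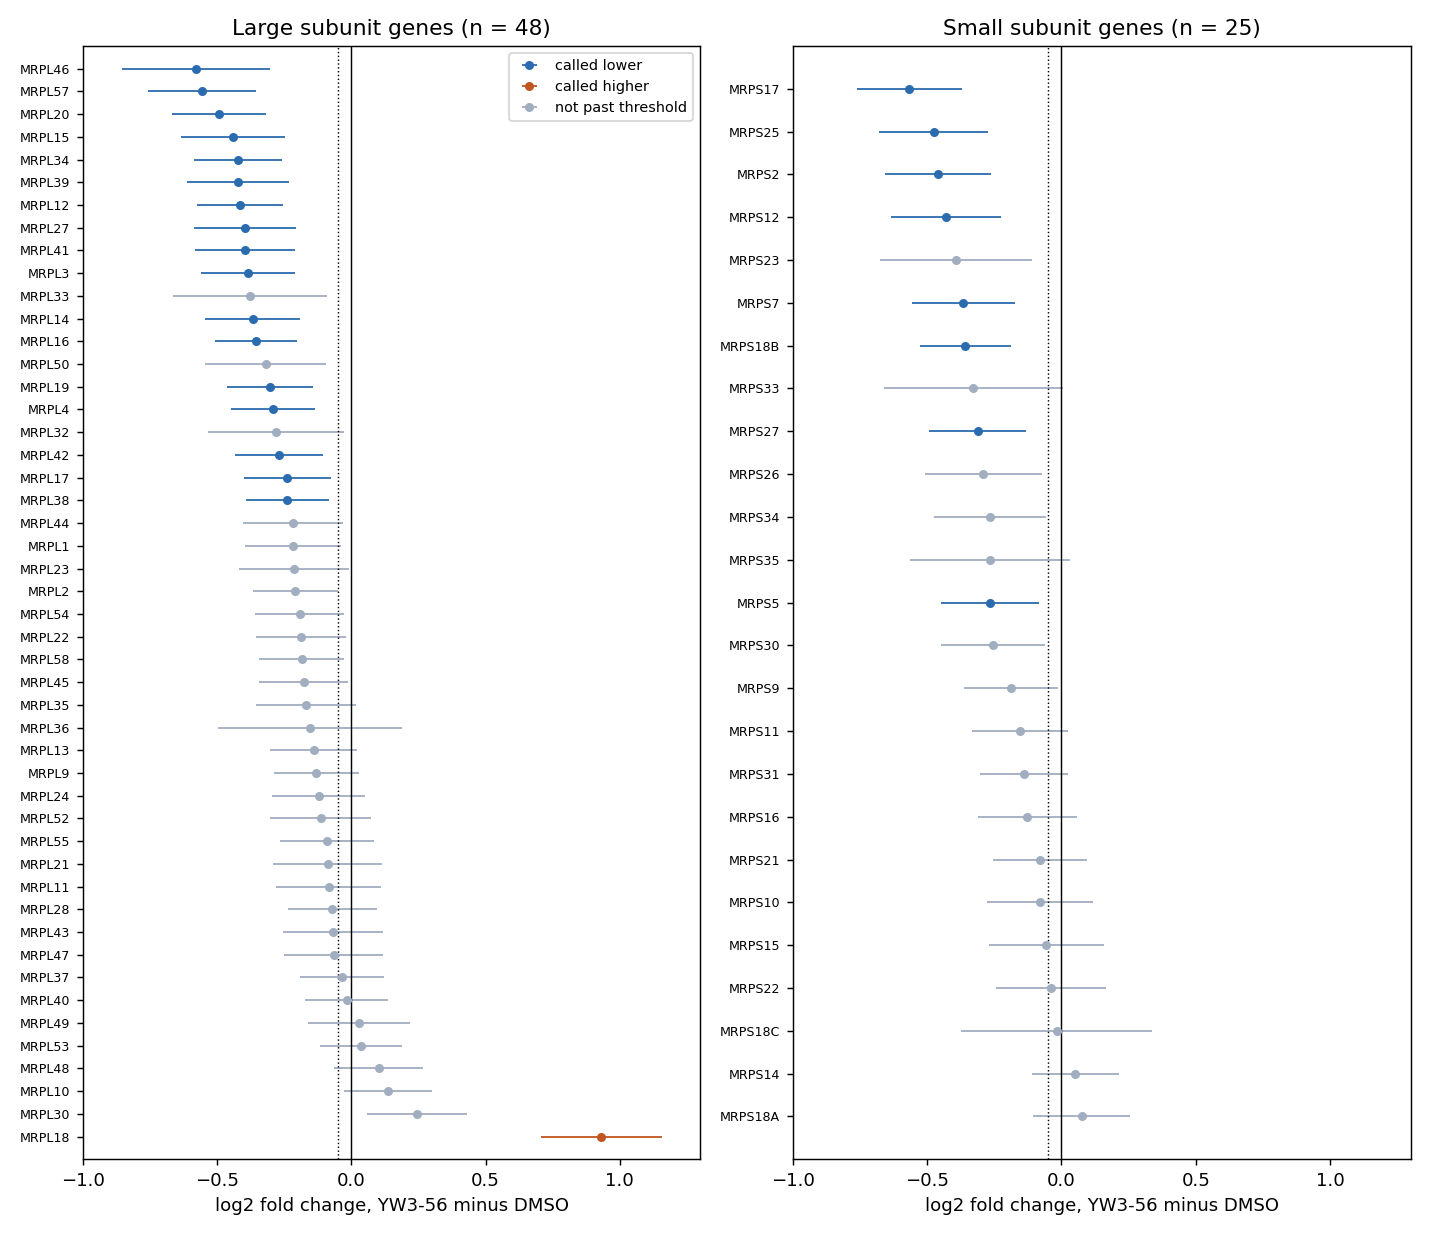
Log2 fold change (YW3-56 minus DMSO, horizontal axis) of each coding mitochondrial ribosomal protein gene, for the large subunit (left) and the small subunit (right), with 95% confidence intervals from limma; blue points were called lower, orange called higher, grey did not pass. The dotted line marks the median of all tested genes, -0.05. MRPL18 at 0.93 stands alone on the right, and MRPL46 at -0.58 and MRPS17 at -0.57 head the falls.

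MRPL18 is a large-subunit protein with a bacterial counterpart. In human cells it is also known for a stress-induced form that stays in the cytosol and joins cytosolic ribosomes. MRPL18 read 11.96, 11.63 and 11.86 in the YW3-56 arrays, against 10.94, 10.82 and 10.90 in the DMSO arrays. The 3 treated values lay clear above all 3 vehicle values, with a gap wider than the spread within either group. Its log2 fold change was 0.93 ± 0.10 (SE; 3 YW3-56 and 3 DMSO arrays; limma adjusted p = 0.000588), and it remained called in each of the 15 alternative fits, with log2 fold changes from 0.86 to 1.03.

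MRPL18 starts head to head with TCP1, a subunit of the cytosolic chaperonin, on the opposite strand. TCP1 had a log2 fold change of only 0.04 ± 0.07 (limma adjusted p = 0.76). The stretch between the first listed starts of the 2 genes is printed because 1 side of it belongs to a gene that rose and the other to a gene with a value near 0. The stretch after it lies between MRPL57 and SKA3, which both fell. Both are from RefSeq (GRCh38.p14), 5′ to 3′ on the strand of the mitochondrial ribosomal protein gene, with any match to the promoter letters named further on in capitals.
MRPL18 to TCP1, chr6:159789603-159789811, + strand: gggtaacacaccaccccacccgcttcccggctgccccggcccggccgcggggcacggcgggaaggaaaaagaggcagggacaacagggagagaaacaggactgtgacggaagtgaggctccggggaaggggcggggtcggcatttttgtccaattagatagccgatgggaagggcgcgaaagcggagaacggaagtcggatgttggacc
MRPL57 to SKA3, chr13:21176553-21176657, + strand: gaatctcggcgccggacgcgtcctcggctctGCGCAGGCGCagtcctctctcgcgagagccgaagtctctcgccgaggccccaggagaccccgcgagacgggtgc

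Between MRPL57 and SKA3 the capitals mark the letters searched for NRF1, GCGC, any pair of bases, GCGC. The letters of a heat shock element (GAA, any pair of bases, TTC, any pair of bases, GAA), searched after the rise of MRPL18 had been seen, were not in the MRPL18 window. Of 14237 tested genes with a window, 0.414% held them, as did 1 of 66 members, MRPL48. Only this pattern, without mismatches, was searched, and control of MRPL18 by heat shock factors was not tested.

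Among the large-subunit genes, 17 of 48 fell, or 35.4%. MRPL46, a mitochondrion-specific protein of the central protuberance, had the largest fall. It read 10.36, 10.03 and 10.21 in the YW3-56 arrays, against 10.96, 10.77 and 10.59 in the DMSO arrays. The groups did not overlap, although the spread within each was wider than the gap between them (log2 fold change -0.58 ± 0.12 SE, limma adjusted p = 0.0105). A fit without shared variance ended the MRPL46 call (adjusted p = 0.078). MRPL57, another mitochondrion-specific protein, read 8.22, 8.44 and 8.44 in the YW3-56 arrays, against 8.86, 8.99 and 8.93 in the DMSO arrays. Here the vehicle values were close together and the lowest of them was well above the highest treated value (-0.56 ± 0.09, limma adjusted p = 0.00305). MRPL20, whose bacterial counterpart acts early in the assembly of the large subunit, read 10.20, 10.24 and 10.33 in the YW3-56 arrays, against 10.68, 10.75 and 10.81 in the DMSO arrays. The fall of MRPL20 was -0.49 ± 0.08 (limma adjusted p = 0.0029), and its 2 probe sets in the table carry identical values, so they count as 1 measurement.

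MRPL12 forms the flexible stalk that recruits translation factors and is also known to bind the mitochondrial RNA polymerase. It read 10.46, 10.48 and 10.51 in the YW3-56 arrays, against 10.86, 10.86 and 10.96 in the DMSO arrays. Both groups were tight, and MRPL12 fell by 0.41 on the log2 scale (SE 0.07, limma adjusted p = 0.00431). MRPL10, the protein that anchors MRPL12 to the body of the subunit, read 9.06, 9.10 and 9.16 in YW3-56, against 8.92, 8.96 and 9.03 in DMSO. That is a value of 0.14 in the opposite direction, which did not pass the test (limma adjusted p = 0.245).

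Other large-subunit genes fell by smaller amounts. MRPL3, whose bacterial counterpart reaches toward the peptidyl transferase centre, changed by -0.38 ± 0.08, and MRPL27, whose counterpart also reaches it, by -0.40 ± 0.08. MRPL2, whose counterpart lies at that centre too, had a value of -0.21 and did not pass (limma adjusted p = 0.0685). MRPL14 (-0.37), a protein of the subunit interface, and MRPL16 (-0.36) followed. The mitochondrion-specific MRPL41 (-0.40) and MRPL39 (-0.42) and the bacterial-type MRPL15 (-0.44) and MRPL34 (-0.42) fell by similar amounts. The smaller falls were those of MRPL19 (-0.30), MRPL4 (-0.29), MRPL42 (-0.27), MRPL17 (-0.24) and MRPL38 (-0.24). Limma adjusted p-values of the 17 falls lay between 0.0029 and 0.0448.

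In the large subunit 30 members did not pass, and in 14 of them all 3 treated arrays were nonetheless below all 3 vehicle arrays. Over all tested genes that order held in 1822 of 14484 that did not pass. Among the 3000 genes at or above the coding members' median level it held in 529 of 1985. MRPL50, the nearest to the threshold, read 11.04, 10.91 and 10.97 in YW3-56, against 11.46, 11.29 and 11.12 in DMSO. MRPL33 had the biggest change among them at -0.38 ± 0.12 (limma adjusted p = 0.0683). MRPL45, which tethers the ribosome to the inner membrane at the exit of the peptide tunnel, had a value of -0.18, and MRPL58, a peptidyl-tRNA hydrolase built into the large subunit, one of -0.18. MRPL37, with 12.44, 12.39 and 12.42 in YW3-56 against 12.50, 12.43 and 12.43 in DMSO, showed no separation of the groups. Its 95% interval, from -0.19 to 0.12 on the log2 scale, bounds its change. Besides MRPL18, the members with values above 0 were MRPL30 (0.24), MRPL10 (0.14), MRPL48 (0.10), MRPL53 (0.04) and MRPL49 (0.03), of which none passed, and the treated arrays of the first 3 were all above the vehicle arrays. MRPL54 had a value of -0.19. The remaining members that did not pass had values between -0.28 (MRPL32) and -0.02 (MRPL40): these 2 with MRPL1, MRPL9, MRPL11, MRPL13, MRPL21, MRPL22, MRPL23, MRPL24, MRPL28, MRPL35, MRPL43, MRPL44, MRPL47, MRPL52 and MRPL55. The probe sets of MRPL36 gave different results: the brighter one, which stood for the gene, changed by -0.15 without passing, and the other by -0.50 (limma adjusted p = 0.00284 when all probe sets were tested).

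**Figure D2:**
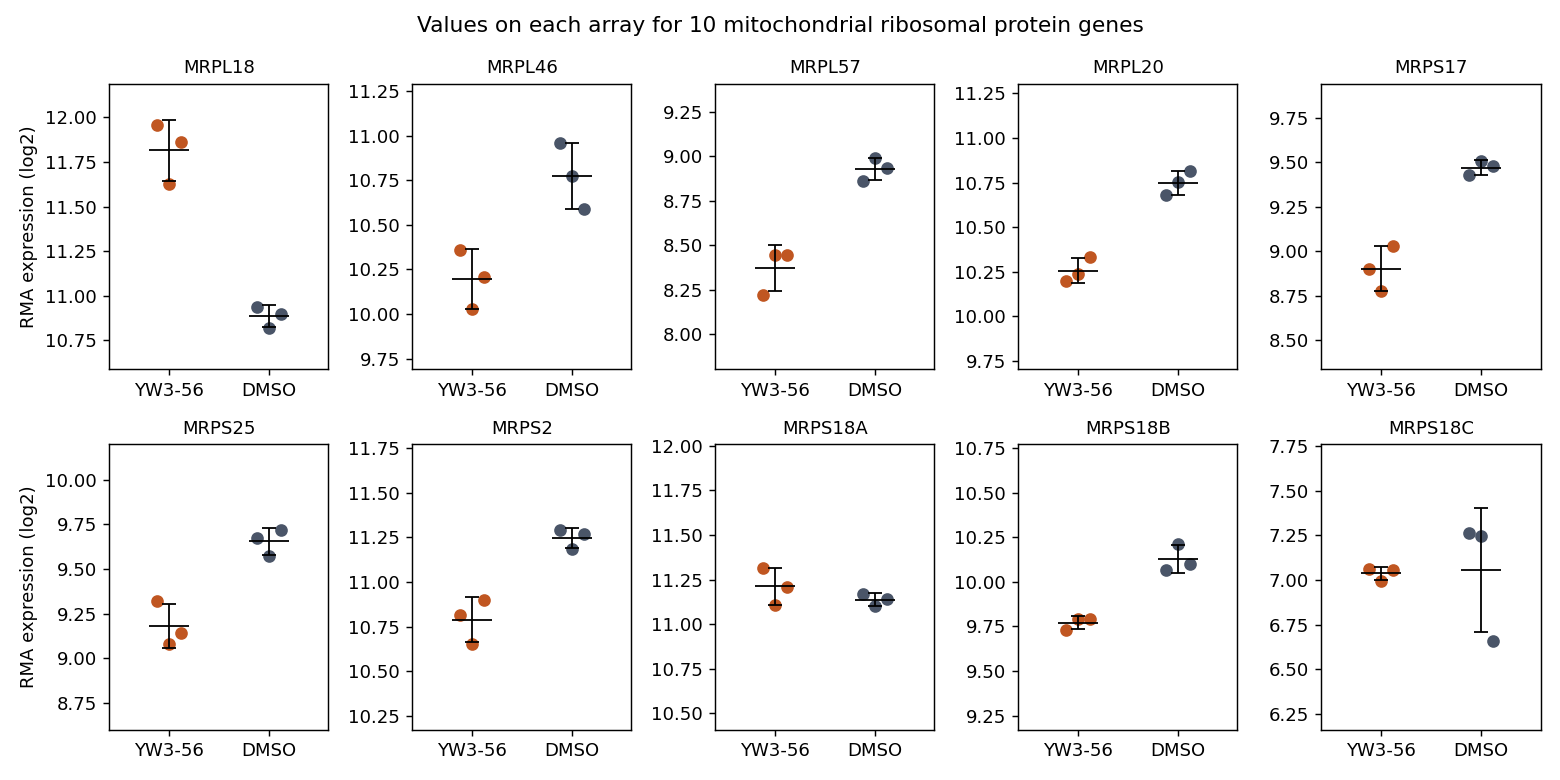
RMA expression (log2, vertical axis; every panel spans the same height) on each of the 3 YW3-56 arrays (orange, left) and 3 DMSO arrays (grey, right) for 10 genes; bars show the mean and SD. The groups are separate for MRPL18, MRPL46, MRPL57, MRPL20, MRPS17, MRPS25, MRPS2 and MRPS18B and overlap for MRPS18A and MRPS18C.

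Among the small-subunit genes, 8 of 25 fell, or 32.0%, and 0 rose. MRPS17, whose bacterial counterpart binds the ribosomal RNA directly, read 8.90, 8.77 and 9.03 in the YW3-56 arrays, against 9.43, 9.51 and 9.48 in the DMSO arrays. The vehicle values were nearly equal, and all treated values were lower (-0.57 ± 0.08, limma adjusted p = 0.00258). MRPS25, a mitochondrion-specific protein, read 9.32, 9.08 and 9.14 in YW3-56, against 9.67, 9.57 and 9.72 in DMSO, a change of -0.48 ± 0.09. MRPS2 read 10.81, 10.65 and 10.90 in YW3-56, against 11.29, 11.19 and 11.27 in DMSO, a change of -0.46 ± 0.09. In both genes the second YW3-56 array was the lowest of all, and the groups stayed apart.

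MRPS12, a protein of the decoding centre, read 9.39, 9.27 and 9.39 in the YW3-56 arrays, against 9.91, 9.65 and 9.80 in the DMSO arrays. It fell by 0.43 on the log2 scale (SE 0.09, limma adjusted p = 0.0102). MRPS7 (-0.37), a protein of the head of the subunit, MRPS27 (-0.31), an RNA-binding protein of the pentatricopeptide repeat class, and MRPS5 (-0.27), which lines the entry of the messenger RNA, also fell. MRPS5 was the call nearest to the threshold (limma adjusted p = 0.0474) and was lost in 9 of the 15 alternative fits. On the other side of the threshold, MRPS23 had a change of -0.39 ± 0.12 with a limma adjusted p of 0.0562. Of the 17 small-subunit genes that did not pass, 8 had all treated arrays below all vehicle arrays. The same order held in 1822 of 14484 tested genes that did not pass, and in 529 of 1985 of the brighter genes. MRPS15 read 11.90, 11.68 and 11.93 in YW3-56, against 11.98, 11.90 and 11.80 in DMSO, with overlapping groups and a value of -0.06. MRPS9, MRPS10, MRPS11, MRPS16, MRPS21, MRPS22, MRPS31 and MRPS35 lay between -0.27 and -0.04, and MRPS14 (0.05) and MRPS18A (0.08) were the only coding genes with a small-subunit symbol above 0.

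The replicate numbers in the labels may pair the samples, and adding the replicate number to the fit as a block called 13 small-subunit genes lower in place of 8. It added MRPS23 (limma adjusted p = 0.0181), MRPS26 (0.0253), MRPS34 (0.026), MRPS30 (0.0307) and MRPS33 (0.0487). In the large subunit it added the falls of MRPL33 (0.024), MRPL50 (0.0291) and MRPL44 (0.0489) and the rise of MRPL30 (0.0324). No called member was lost with the block. Over all genes the share called lower was 14.4% with the block, beside 45.2% of coding members.

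The 3 MRPS18 paralogs show how close relatives differed in value. MRPS18B, which has its own mitochondrion-specific position in the small subunit, read 9.73, 9.79 and 9.79 in YW3-56, against 10.07, 10.21 and 10.10 in DMSO, and fell by 0.36 on the log2 scale (SE 0.07, limma adjusted p = 0.0104). The 3 probe sets of MRPS18B hold identical values. MRPS18A read 11.32, 11.11 and 11.21 in YW3-56, against 11.17, 11.10 and 11.14 in DMSO, with overlapping groups (0.08, 95% interval from -0.11 to 0.26). MRPS18C read 7.06, 6.995 and 7.05 in YW3-56, against 7.27, 7.25 and 6.66 in DMSO, where 1 vehicle array lay far below the other 2. Its 95% interval ran from -0.37 to 0.34 and so covers the change seen in MRPS18B. The differences between the paralogs were not tested.

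Large and small subunit differed little in these summaries. The share called lower was 35.4% in the large and 32.0% in the small subunit, and the median log2 fold change was -0.20 in the large and -0.27 in the small subunit, a difference that was not tested. Without DMSO replicate 1 the order turned, with -0.19 in the large and -0.17 in the small subunit. With array weights, which gave DMSO replicate 1 the lowest weight (0.33), both medians were -0.19. The mean over the 48 large-subunit genes was 10.11, 10.06 and 10.11 in the YW3-56 arrays, against 10.30, 10.26 and 10.29 in the DMSO arrays. The mean over the 25 small-subunit genes was 9.84, 9.72 and 9.83 in YW3-56, against 10.09, 10.01 and 9.99 in DMSO. In each subunit the treated means were all below the vehicle means, while the mean over all tested genes ran from 8.32 to 8.33 in YW3-56 and from 8.32 to 8.40 in DMSO. Some symbols mislead about place, since MRPS30 and MRPS18A are found in the large subunit of the human structure. With these 2 moved, 17 of 50 large-subunit and 8 of 23 small-subunit genes fell, and the medians stayed at -0.20 and -0.27. KGD4, formerly named MRPS36 and now assigned to the oxoglutarate dehydrogenase complex, was not past the threshold (0.16, limma adjusted p = 0.43).

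Grouped by a list of genes with a bacterial counterpart, 16 of 43 such genes (37.2%) fell and MRPL18 rose, with a median of -0.19. Of the 30 genes counted as mitochondrion-specific, 9 fell (30%) and 0 rose, with a median of -0.25. Over all tested genes 11.5% were lower. MRPS18A and MRPS18B were counted as mitochondrion-specific and MRPS18C as having a bacterial counterpart, although these genes are paralogs. The pseudogene MRPS31P5 read 7.90, 7.98 and 7.87 in YW3-56, against 7.70, 7.503 and 7.54 in DMSO, and rose by 0.34 on the log2 scale (SE 0.08, limma adjusted p = 0.0208). Its parent gene MRPS31 had a value of -0.14 that did not pass, and probes shared between the copies cannot be separated here. The MRPS31P5 call was lost in 6 of the 15 alternative fits, including those without any 1 YW3-56 array.

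These counts depend on single arrays. Without YW3-56 replicate 3, 16 members were called lower, 11 large and 5 small, and 6.55% of all genes were lower. Without YW3-56 replicate 2 or after centring of each array, 5 small-subunit genes were called lower, and without DMSO replicate 2 there were 4. Of the 27 called members, 14 were called in each of the 15 alternative fits: MRPL18 as a rise and MRPL3, MRPL12, MRPL15, MRPL16, MRPL20, MRPL34, MRPL39, MRPL41, MRPL57, MRPS2, MRPS12, MRPS17 and MRPS25 as falls. MRPL14, MRPL27 and MRPS18B were lost in 1 fit each, as was MRPL46. MRPL4 and MRPL19 were lost in 3, MRPS7 in 4, MRPS27 in 5, MRPL42 in 6, and MRPL17 and MRPL38 in 7. The median over coding members was below that over all genes in every fit, between -0.23 and -0.18.

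Promoter letters were compared next. RefSeq windows from 250 bases before to 50 bases after the most upstream listed start (GRCh38.p14) were found for 66 coding members and 14237 tested genes, and both strands were searched. The letters CCGGAAG, which fit the ETS factor GABP, were in 42.4% of members and 14.5% of tested genes. The letters AAGATGGC, which fit YY1, were in 27.3% of members and 4.02% of tested genes. They contain the letters ATG, whose place relative to coding starts was not examined, and the 7 matches printed here follow the transcription start. The NRF1 letters were in 13.6% of members and 12.4% of tested genes, and the E-box CACGTG in 10.6% and 8.84%. TGATGNAAT, for the ATF4 element, was in 1 member, MRPL55, and 0.597% of tested genes. The median GC content of the windows was 60.2% in members and 63% in tested genes. In 7 members ETS and YY1 letters occurred in the same window, and in none did the matches overlap.

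Of 8 members that fell and hold the YY1 letters, 7 are printed below as 30 bases each, 5′ to 3′ on the gene's strand (RefSeq, GRCh38.p14), because among the motifs searched this one had the widest ratio between the share in members and the share in tested genes. Capitals mark AAGATGGC.
MRPL46, chr15:88467362-88467391, - strand: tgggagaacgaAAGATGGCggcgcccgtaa
MRPL20, chr1:1407260-1407289, - strand: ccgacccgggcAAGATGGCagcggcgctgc
MRPS7, chr17:75261887-75261916, + strand: cgtggccagccAAGATGGCtgcccccgcag
MRPS18B, chr6:30617852-30617881, + strand: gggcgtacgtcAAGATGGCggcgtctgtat
MRPS27, chr5:72320206-72320235, - strand: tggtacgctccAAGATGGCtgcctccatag
MRPL42, chr12:93467511-93467540, + strand: aggattgaaacAAGATGGCgggttcgtggt
MRPL38, chr17:75904860-75904889, - strand: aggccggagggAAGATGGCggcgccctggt

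The match begins at base 9 of the transcript in MRPL46 and MRPL42, at base 7 in MRPL38, 16 in MRPL20, 17 in MRPS27, 20 in MRPS7 and 24 in MRPS18B, counting the start as base 1. The shares with these letters were 33.3% of 24 members that fell and 24.4% of 41 that did not pass. For the ETS letters the order was opposite, with 6 of 24 members that fell and 22 of 41 that did not pass. A match is only a run of letters, and factor binding was not measured.

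Some members share a promoter region with another gene. A tested gene starting within 1000 bases on the opposite strand, head to head, was found for 20 members. Among these pairs, MRPL57 fell together with SKA3 (-0.71), a kinetochore protein, MRPS12 with SARS2 (-0.46), the mitochondrial seryl-tRNA synthetase, and MRPS18B with PPP1R10 (-0.32), a nuclear regulator of protein phosphatase 1. In the other pairs with a member that fell, the neighbour did not pass: PIERCE1 beside MRPS2, EME1 beside MRPL27, TMEM63B beside MRPL14, GGA3 beside MRPS7, PTCD2 beside MRPS27 and MRPS11 beside MRPL46. MRPL46 and MRPS11 are both members, and their log2 fold changes were -0.58 and -0.15. ZNF189 rose by 0.70 beside MRPL50, which had a value of -0.32 without passing. Over the 20 neighbours, 4 fell, 1 rose and 15 did not pass, counting MRPL46 and MRPS11 as neighbours of each other. MRPL46, itself a member, is thus 1 of the 4 that fell. Over all tested genes 11.5% were lower and 9.84% higher, and whether paired genes change together was not tested.

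**Figure D3:**
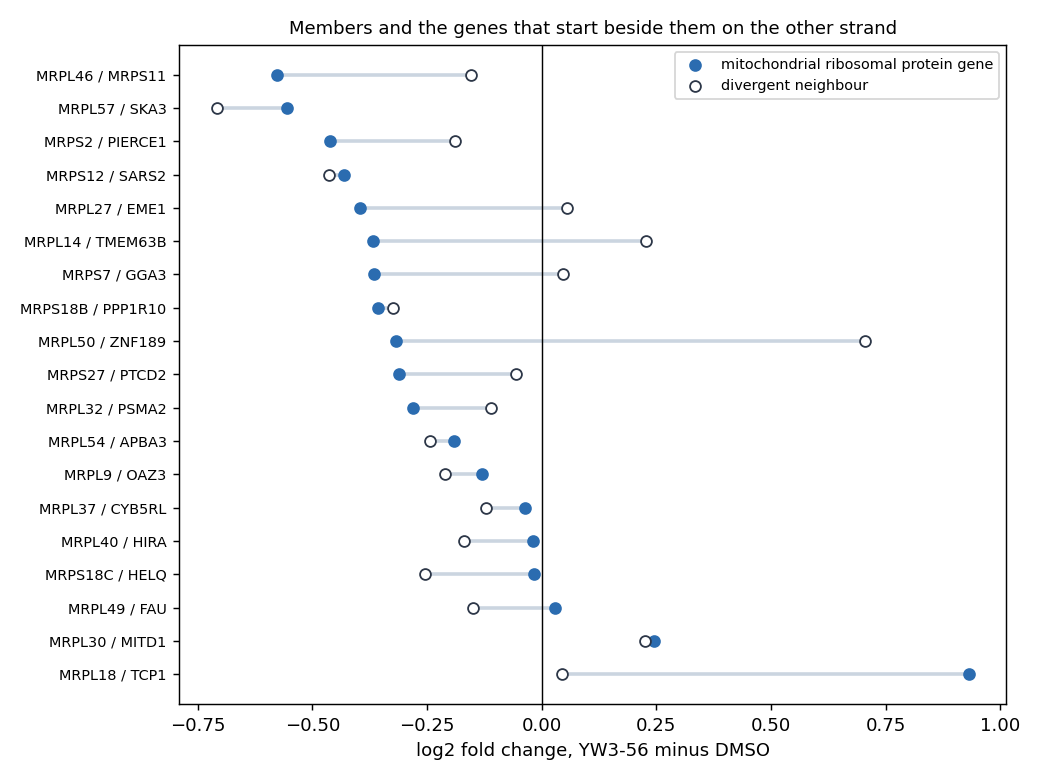
Log2 fold change (YW3-56 minus DMSO, horizontal axis) of mitochondrial ribosomal protein genes (filled) and of the gene starting head to head with each (open), joined by a line; MRPL46 and MRPS11, both members, are drawn once. The 2 points lie close for MRPS12 and SARS2 and far apart for MRPL18 and TCP1 and for MRPL50 and ZNF189.

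Other genes of mitochondrial gene expression were described from lists of named genes. Of 4 measured mitoribosomal proteins without an MRP symbol, GADD45GIP1 (-0.31), a large-subunit protein, fell, and PTCD3 (-0.27), CHCHD1 (-0.18) and DAP3 (-0.05), all of the small subunit, did not pass. With the replicate block PTCD3 was called too (limma adjusted p = 0.0422). Of 15 mitochondrial translation factors 5 fell and 0 rose (median -0.13), led by GFM1, the elongation factor that drives translocation (-0.55 ± 0.11), TACO1, a translational activator of the COX1 message (-0.33), and MTFMT, which formylates the initiator tRNA (-0.29).

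Of 25 genes for mitoribosome assembly and rRNA modification, 5 fell and 0 rose (median -0.11). FASTKD2, an RNA-binding protein needed for the large-subunit rRNA, read 8.28, 8.13 and 7.99 in YW3-56, against 9.57, 9.13 and 9.21 in DMSO. At 2.26-fold lower (-1.17 ± 0.13, limma adjusted p = 0.000688), it changed by more than any ribosomal protein of the mitochondrion tested here. MRM1 (-0.55) and MRM3 (-0.51), which methylate that rRNA, fell as well.

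Among 12 genes that transcribe and replicate the mitochondrial genome, 7 fell and 1 rose (median -0.31). TFB2M, the initiation factor of the mitochondrial polymerase, changed by -0.55 ± 0.07, TFAM, which packages and activates the genome, by -0.47 ± 0.07, and POLG2, a subunit of its DNA polymerase, by -0.39 ± 0.07. Mitochondrial aminoacyl-tRNA synthetases fell in 6 of 19 and rose in 2 (median -0.21). MARS2, the methionyl enzyme, changed by -0.98 ± 0.09, SARS2 by the value given above, and GARS1, which also serves the cytosol, rose by 0.51. Chaperones and proteases of the organelle went both ways, with 6 of 14 lower and 2 higher. The list of 14 includes ATF5, a transcription factor, which did not pass (-0.24). GRPEL1, a nucleotide exchange factor, fell by 0.69 on the log2 scale, whereas the chaperonin subunits HSPE1 (0.58) and HSPD1 (0.55) rose.

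Of 11 transcriptional regulators of mitochondrial biogenesis, 3 were lower and 3 higher. That is 27.3% in each direction, beside 11.5% lower and 9.84% higher over all tested genes. PPRC1, a coactivator of the PGC-1 family, read 10.15, 9.93 and 9.92 in YW3-56, against 10.97, 10.86 and 10.79 in DMSO, a change of -0.87 ± 0.09 (limma adjusted p = 0.000578). The other falls were those of PPARGC1B (-0.52, limma adjusted p = 0.00969) and PPARGC1A (-0.30, limma adjusted p = 0.0331), of the same family. GABPA, the DNA-binding subunit of GABP, rose by 0.78 ± 0.20, GABPB2 by 0.62 ± 0.09 and MYC by 0.55 ± 0.08. The DMSO arrays of GABPA read 8.79, 8.59 and 7.94, the last far below the others. YY1 (-0.02), NRF1 (0.005) and GABPB1 (0.03) did not pass.

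Set beside these, the nuclear-encoded respiratory chain had 10 of 79 genes lower and 1 higher, or 12.7% and 1.27%, and a median of -0.09. Its largest called changes were those of NDUFA13 (0.47), ATP5F1A (-0.40) and NDUFAB1 (-0.37). The cytosolic ribosomal proteins had 6 of 67 lower and 0 higher, or 8.96% lower, and a median of -0.06. RPL22L1 (-0.67), RPL32 (-0.44) and RPL23 (-0.42) were in front. Negative values were found in 59 of these 67 genes, beside 65 of 73 coding mitochondrial members and 58 of 79 respiratory chain genes. The respiratory chain and cytosolic lists were taken by symbol pattern and include dimmer genes. Their lowest mean levels were 5.44 and 5.17, against 7.05 in the coding members. Their median levels were 10.30 in the respiratory chain and 12.33 in the cytosolic list, against 10.34 in the coding members. The pattern also takes the like-named RPL22L1 and RPL7L1 (-0.41), both called lower. Both shares of falls were below the 19.8% of the 3000 genes at or above the coding members' median level. They were near the 11.5% of all tested genes. That of the mitochondrial ribosomal proteins, 34.2%, lay among those of the other lists of mitochondrial gene expression and protein folding: 20% for assembly and rRNA modification, 31.6% for aminoacyl-tRNA synthetases, 33.3% for translation factors, 42.9% for chaperones and proteases and 58.3% for transcription and replication of the genome. These differences between groups of genes are descriptions without a test.

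**Figure D4:**
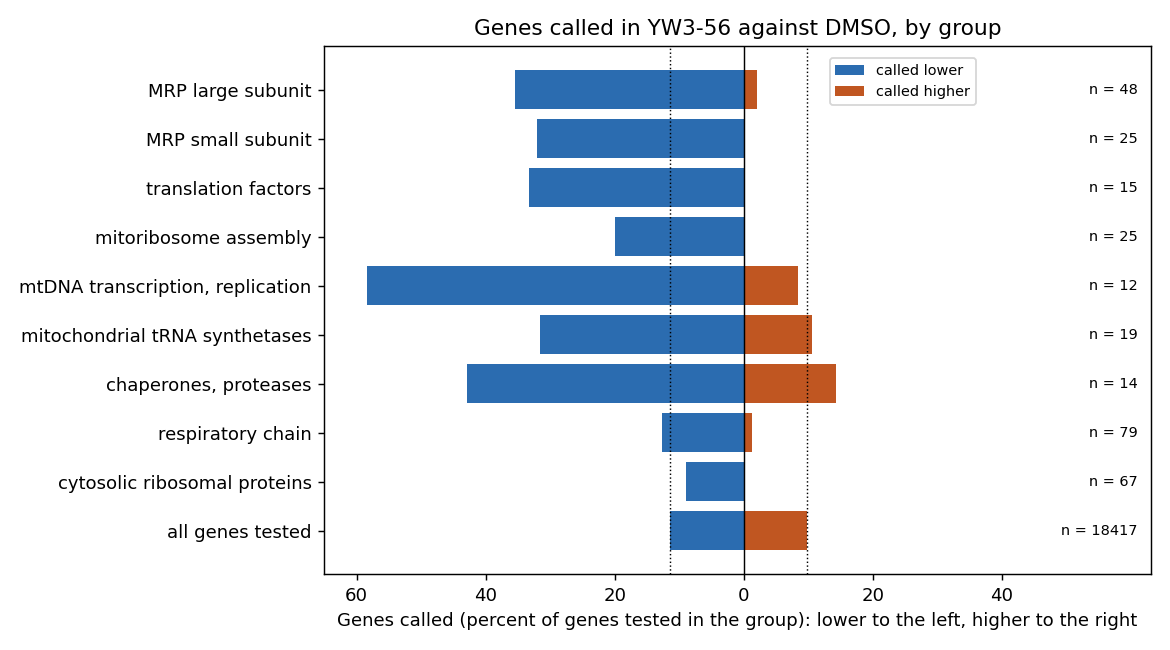
Percent of the tested genes in each group that were called lower (blue, to the left) or higher (orange, to the right) in YW3-56 against DMSO; n is the number of genes, the regulators of biogenesis are not drawn, and dotted lines mark the shares of all tested genes, 11.5% lower and 9.84% higher. Bars of both mitoribosomal subunits pass the dotted line on the left, while those of the respiratory chain and the cytosolic ribosomal proteins end near it.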

How the data were processed

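Deposited values were log2 expression, made by the authors with RMA and the affy package per the submitters' processing notes, for 33297 probe sets on 6 arrays. The sources used here do not give versions or the genome build. Arrays carry no read depth, so the 3 arrays per group limit the precision, and p-values measure only the spread between these arrays. Of the probe sets, 19460 had a single symbol in the platform annotation, which can be old, and the brightest stood for each of 18417 genes. YW3-56 was compared with DMSO in limma 3.58.1 (R 4.3.3; lmFit, eBayes, group as the only term, two-sided, Benjamini-Hochberg over all genes), with 4 residual and 4.17 prior degrees of freedom. The script was tested on simulated data. Members, lists, motifs and the rule for named genes were chosen with earlier results of these data known, and lists are described by counts and medians only. The rule named called members of each subunit (up to 12 per direction), those nearest the threshold, the MRPS18 paralogs and up to 3 leading genes per list. Other genes named to complete a count were chosen after their values were seen. Protein sequences were not used here, and 1 promoter match is not reported.

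Same-numbered arrays deviated together from their group means, with correlations over genes of 0.54, 0.37 and 0.10 for replicates 1, 2 and 3 (0.102 for the last), so replicate number was run as a block. A higher correlation, 0.42, linked YW3-56 replicate 2 to DMSO replicate 3, which leaves the pairing uncertain. The other alternatives were 2 normalizations, 2 filters on dim genes (log2 5 and 6), the mean of probe sets, 2 other variance models, array weights and leaving out each array.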

Additional observations from a re-analysis of the deposited data

How the results depend on the processing

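The direction of every named member that was called held its sign in all 15 alternative fits. Counts moved more. Leaving out 1 array gave 16 to 25 members lower and 1 to 2 higher, 11 to 16 large-subunit and 4 to 9 small-subunit genes lower, and 1206 to 2605 genes lower and 1158 to 2084 higher in all, and 17 to 22 of the named members past the threshold, against 23. The median of the large subunit ran from -0.22 to -0.18 and that of the small subunit from -0.28 to -0.17 in these fits. With the replicate block 13 small-subunit genes were lower, and over all genes 2661 were lower and 2115 higher. Centring of each array left 5 small-subunit genes lower and moved the large-subunit median to -0.17. Array weights raised the calls to 3631 lower and 2749 higher over all genes and moved the small-subunit median to -0.19. With no shared variance, or with coding symbols only, 1 member was higher. Centring and a second quantile normalization shifted the median of all genes by 0.03 on the log2 scale. They changed the split of calls over all genes to 1432 lower and 1691 higher, and to 2025 lower and 2114 higher, against 2121 and 1812. The array weights were estimated gene by gene, since the joint estimate did not converge. This, the heat shock letters and the promoter sequences printed were chosen after seeing the data. The plan had been to print, for each subunit, the called member with the largest fall that held a motif. The cause of these shifts was not tested.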
